A study of Arabidopsis thaliana with 39 samples.

Results

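EXPA7 (AT1G12560) and EXPA18 (AT1G62980) are the 2 root hair expansins followed here across 39 Affymetrix ATH1 arrays of the Arabidopsis root tip. They were found by gene symbol in the probe-to-gene table of the array, each had 1 probe set, and they are 2 of 7527 named genes whose probe set was bright enough to be tested. All arrays held total RNA from seedlings of Arabidopsis thaliana grown for 5 days on standard media. The ecotype was Columbia, and the source is labelled DR5-GUS, a line that carries an auxin-responsive reporter. The arrays are divided into OZ1 (20 arrays) and OZ2 (19 arrays), adjoining regions of the oscillation zone, in which the positions of future lateral roots are set. All groups share this genotype and these growth conditions, and no treatment is labelled. The labels disagree on which region is the upper and which the lower, so the names OZ1 and OZ2 alone are used. The submitters also place the arrays in 1 order, positions 1 to 20 for OZ1 and 21 to 39 for OZ2, for finding periodic expression.

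Expansins are secreted proteins that loosen plant cell walls at acid pH, which lets a cell under turgor enlarge. EXPA7 and EXPA18 belong to the alpha-expansin family and are known for transcription in the hair-forming files of the root epidermis, the trichoblasts, beginning shortly before a hair bulges out. Both are used as markers of that cell type. The arrays measured whole pieces of root, so fewer cells of a type and less RNA per cell cannot be told apart in any value below.

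Values are array signals, scaled by the authors to the same mean on every array, and log2 of the signal was used for the tests. The median signal per array was 54.4 to 164. The arrays were scanned on 3 days. Scan day 1 held 12 OZ1 and 10 OZ2 arrays, scan day 2 held 8 OZ1 arrays and scan day 3 held 9 OZ2 arrays, so only scan day 1 sets the regions side by side. Each array was placed on an axis running from the mean of the OZ1 arrays (0) to the mean of the OZ2 arrays (1), computed from all tested probe sets except those of the 2 expansins and from all arrays except the one being placed. By this measure 6 arrays lay nearer the other region than their own. Results are therefore given with and without them. What a replicate number stands for is not stated, and p-values measure only the spread between these arrays.

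Both expansins were low on most OZ1 arrays and high on most OZ2 arrays. EXPA7 had a lowest signal of 17.4, a median of 162 and a highest of 3460 on the 20 OZ1 arrays. On the 19 OZ2 arrays its lowest signal was 15.3, its median 4110 and its highest 10264. The regions overlapped, yet 0 of 20 OZ1 arrays reached the OZ2 median. The low end of OZ2 rested on OZ2-38 alone, and the next lowest OZ2 array, OZ2-10, had a signal of 149.9. EXPA18 had a lowest signal of 16.3, a median of 59.3 and a highest of 2597 in OZ1. In OZ2 its lowest signal was 135, its median 3460 and its highest 9121. For EXPA18 too, 0 of 20 OZ1 arrays reached the OZ2 median, and 7 of 20 lay above the lowest OZ2 array. For each gene 8 of 19 OZ2 arrays lay below the highest OZ1 array.

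In the limma fit over all 13627 tested probe sets both expansins rose from OZ1 to OZ2. EXPA7 went from a log2 signal of 7.82 ± 2.24 (SD, n = 20) to 11.25 ± 2.25 (SD, n = 19). Its log2 difference was 3.43 ± 0.65 (SE), which is 10.8-fold, with a limma adjusted p of 9.17e-05. EXPA18 went from 6.90 ± 2.27 (SD, n = 20) to 11.13 ± 1.75 (SD, n = 19). Its log2 difference was 4.23 ± 0.59 (SE), which is 18.7-fold, with a limma adjusted p of 1.72e-06. Both members passed the test in this direction, against 13.3% of all tested probe sets. By the size of the rise EXPA18 ranked 36th and EXPA7 91st among the 13627, whose median log2 difference was -0.09. The 2 genes were chosen with earlier results of these data known. Nothing is therefore read from this count or from the ranks, and the adjusted p do not allow for that choice. On 7 of 20 OZ1 arrays EXPA18 lay below the level of log2 5.69 used to choose tested probe sets, as did EXPA7 on 3 of 20. In OZ2 this held for 0 of 19 arrays for EXPA18 and 1 of 19 for EXPA7, so the fold of EXPA18 in particular rests in part on dim OZ1 values.

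**Figure D1:**
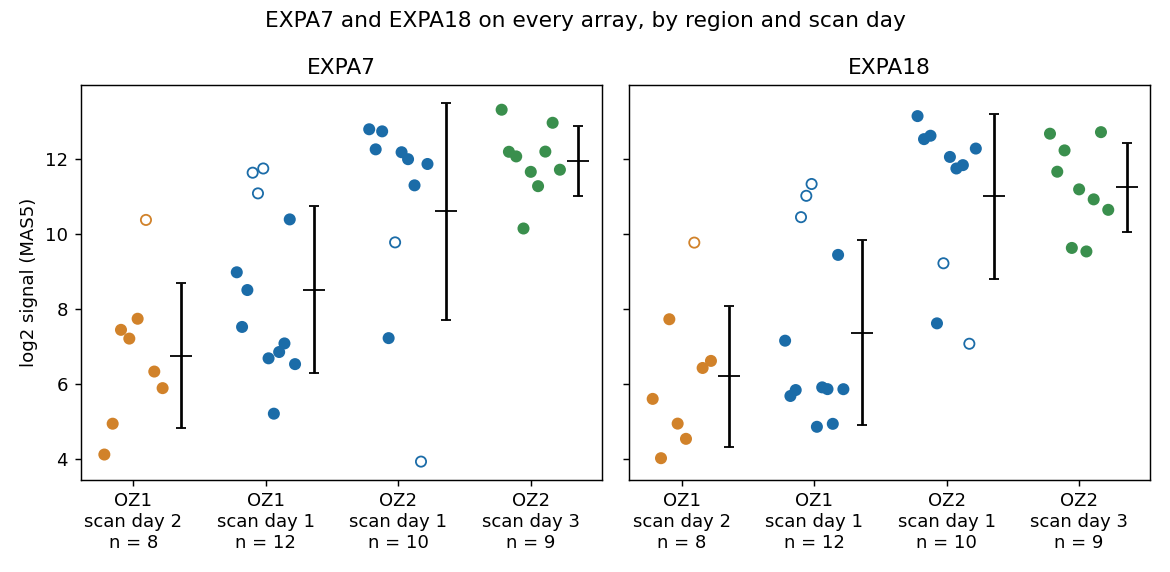
Log2 signal of EXPA7 (left) and EXPA18 (right) on each of 39 arrays, by region and scan day. Each point is an array, open points mark the 6 arrays placed nearer the other region by their other probe sets, and bars give the mean and 1 SD. The 9 OZ2 arrays of scan day 3 lie between 10.15 and 13.33 for EXPA7, while the 10 OZ2 arrays of scan day 1 run from 3.93 to 12.80.

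Both genes had their means in the same order. From the lowest it ran OZ1 on scan day 2, OZ1 on scan day 1, OZ2 on scan day 1 and OZ2 on scan day 3. In OZ1, EXPA7 had a mean log2 signal of 8.52 ± 2.23 (SD, n = 12) on scan day 1 and of 6.76 ± 1.93 (SD, n = 8) on scan day 2. In OZ2 it had 10.61 ± 2.89 (SD, n = 10) on scan day 1 and 11.96 ± 0.93 (SD, n = 9) on scan day 3. The gap between the regions was thus narrower on the shared day than between the other days. EXPA18 had 7.37 ± 2.47 and 6.21 ± 1.88 in OZ1 on scan days 1 and 2. In OZ2 it had 11.02 ± 2.20 and 11.25 ± 1.19 on scan days 1 and 3. None of the 4 comparisons between scan days within a region passed a two-sided exact permutation test. With 8 to 12 arrays a day this does not show that the days were alike. The lowest p was that of EXPA7 in OZ1 (difference -1.76, exact p = 0.085, adjusted over the 4 tests 0.34).

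With scan day as a block in the model, the log2 difference of EXPA7 was 2.09 ± 0.83 (SE) and no longer passed (limma adjusted p = 0.096). That of EXPA18 was 3.65 ± 0.79 (SE) and passed (limma adjusted p = 0.0026). So 1 of the 2 members passed under the block, against 4.56% of tested probe sets called higher in OZ2 in that fit. Scan days 2 and 3 each held 1 region, so the block fit takes its difference from scan day 1. The 22 arrays of scan day 1 alone gave the same differences for that reason, which is no second support. Their limma adjusted p were 0.177 for EXPA7 and 0.0166 for EXPA18, against 2.31% of tested probe sets called higher in OZ2. Between the OZ2 arrays of scan day 3 and the OZ1 arrays of scan day 2 the differences were 5.20 for EXPA7 and 5.04 for EXPA18. There, region and scan day cannot be told apart.

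Of the 6 arrays off their region, 5 were scanned on day 1, the day on which the regions are compared. Without the 6 arrays the log2 difference was 4.80 ± 0.46 (SE) for EXPA7 and 5.51 ± 0.44 (SE) for EXPA18. In a scan day block fit that also left them out it was 4.02 ± 0.62 for EXPA7 (limma adjusted p = 1.98e-06) and 5.56 ± 0.61 for EXPA18 (limma adjusted p = 2.59e-09), a combination chosen after seeing the data. These arrays were left out because their other transcripts resembled the other region, and a larger difference follows in part from that choice.

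**Figure D2:**
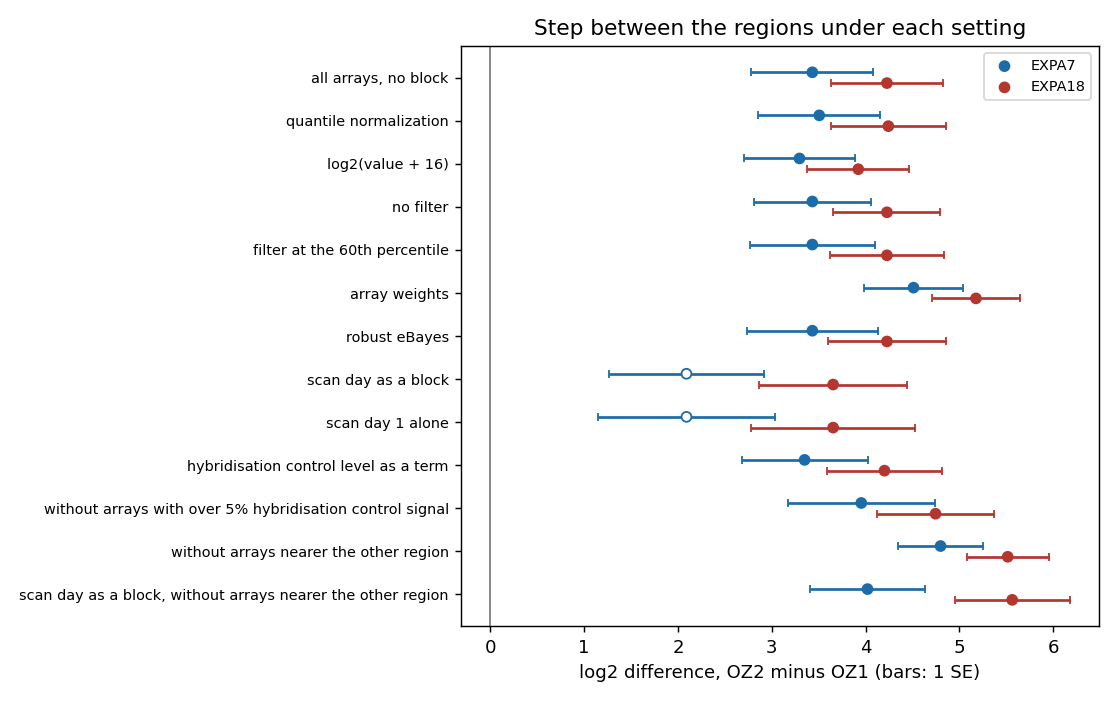
Log2 difference, OZ2 minus OZ1, of EXPA7 (blue) and EXPA18 (red) under each setting of the limma fit, with bars of 1 SE. Filled points have an adjusted p under 0.05. The 2 open points, both EXPA7 at 2.09, belong to the fits with a scan day block and on scan day 1 alone.

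Individual OZ1 arrays fell into separate levels of expansin signal. OZ1-10, OZ1-2, OZ1-6, OZ1-3 and OZ1-9 were the 5 arrays of 20 with a log2 signal over 9, and they were the same arrays for both genes. OZ1-10 was the highest of its region for both, with log2 signals of 11.76 for EXPA7 and 11.34 for EXPA18. On the axis of all other transcripts it lay at 1.09, past the OZ2 mean. OZ1-2 had 11.64 for EXPA7 and 10.46 for EXPA18 and lay at 0.838 on the axis. OZ1-6 had 11.09 and 11.03 and lay at 0.748. OZ1-3, the only one of the 6 scanned on day 2, had 10.38 and 9.78 and lay at 0.724. These 4 arrays resembled OZ2 in both their expansins and their other transcripts.

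OZ1-9 differed from them. Its log2 signals were 10.40 for EXPA7 and 9.45 for EXPA18, which is 3.07 and 3.56 above the OZ1 medians, while it lay at only 0.259 on the axis, on the OZ1 side. The remaining 15 OZ1 arrays lay at 8.99 or lower for EXPA7 and at 7.73 or lower for EXPA18. The highest of these for EXPA7 was OZ1-1 and the highest for EXPA18 was OZ1-13.

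In OZ2, 17 of 19 arrays had a log2 signal over 9 for each gene and the same 2 arrays had one under 8. OZ2-38 had 3.93 for EXPA7, the lowest value of all 39 arrays, and 7.08 for EXPA18. It lay at -0.346 on the axis, beyond the OZ1 mean. OZ2-10 had 7.23 for EXPA7 and 7.62 for EXPA18, or -4.78 and -4.13 from the OZ2 medians. Its axis value was 0.784, so its other transcripts placed it on the OZ2 side while both expansins lay among the OZ1 values. OZ2-32, the other array nearer OZ1 (0.287 on the axis), kept intermediate log2 signals of 9.78 for EXPA7 and 9.23 for EXPA18.

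Markers of dividing cells were read beside the expansins on these arrays. The dividing-cell list had 3 tested genes, namely AUR1, which encodes an Aurora kinase of mitosis, BUB3.1, a spindle checkpoint protein, and PRL, an MCM protein of DNA replication. All 3 were lower in OZ2 in the limma fit, against 15.6% of tested probe sets called lower. The log2 differences were -1.51 for BUB3.1 (limma adjusted p = 0.00194), -0.93 for AUR1 (limma adjusted p = 0.0396) and -0.82 for PRL (limma adjusted p = 0.0209). The list was chosen with earlier results of these data known, and AUR1 was named after its values were seen. Nothing is therefore read from this count. None of the 3 passed under the scan day block (adjusted p of 0.0878, 0.285 and 0.32), in which 6.71% were called lower. Their summed signal had a lowest value of 278, a median of 681 and a highest of 1287 on the OZ1 arrays, and of 90.7, 351 and 1812 on the OZ2 arrays. The 3 OZ2 arrays with the highest sums were OZ2-32 (1812), OZ2-38 (847) and OZ2-10 (846), and the next was OZ2-19 (568). The first 3 are also the OZ2 arrays with the lowest EXPA18 and EXPA7 signals. The sums of OZ2-38 and OZ2-10 lay inside the OZ1 range. The 5 OZ1 arrays with high expansins had sums of 343 to 764, inside the range of the other OZ1 arrays. For AUR1, BUB3.1 and PRL the mean of the Pearson r with the 2 expansins was -0.07, -0.40 and -0.54 within OZ1. Within OZ2 it was -0.64, -0.52 and -0.41. The part of these cells in the expansin values was not tested.

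Expansin signal also was set against the hybridisation controls, non-plant transcripts spiked into each sample. Their share of the signal can rise where less labelled root RNA is present. Across the OZ1 arrays they gave r = 0.184 with EXPA7 and r = 0.167 with EXPA18, and across the OZ2 arrays r = -0.014 and r = -0.172. By rank the OZ2 values were larger, with rho = -0.430 for EXPA7 (permutation p = 0.068) and rho = -0.456 for EXPA18 (permutation p = 0.0512), while in OZ1 rho was 0.197 and 0.036. None of the 4 relations passed a permutation test adjusted over the 6 computed (adjusted p of 0.583 to 0.959 for r and 0.102 to 0.881 for rho). With the level of these controls as a term, the differences between the regions were 3.35 for EXPA7 and 4.20 for EXPA18. The differences were 3.95 and 4.74 without the 11 arrays on which the controls held over 5% of the signal. Of the 6 arrays off their region, OZ1-3 (5.8%), OZ1-6 (8.9%), OZ1-10 (10.5%) and OZ2-32 (17.3%) were among these 11. OZ1-2 (3.2%) and OZ2-38 (1.7%) were not, and the rest of the 11 lay nearer their own region. OZ2-32, which had the highest sum of dividing-cell markers, also had the largest control share of all 39 arrays. Any part of labelling in these values was not tested.

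The joint variation of the 2 genes was read within each region, because pooling the regions would turn their step into a correlation. In OZ2 the genes varied together, with Pearson r = 0.904 and Spearman rho = 0.882 over 19 arrays. Both permutation p were 1e-05, the smallest that the 100000 permutations could give, and adjusted over 6 relations they were 3e-05 for r and 6e-05 for rho. Without OZ2-10 and OZ2-38, the 2 arrays farthest from the median of EXPA7, r was 0.863. Within scan day 1 it was 0.955 over 10 arrays, and within scan day 3 it was 0.884 over 9 arrays (exact permutation p = 0.000863). Without OZ2-10, OZ2-32 and OZ2-38, a choice made after seeing the data, it was 0.812 over 16 arrays (permutation p = 0.00011). The genes thus varied together among the OZ2 arrays with high signals too.

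In OZ1, r was 0.851 over 20 arrays (permutation p = 1e-05, adjusted 3e-05) and rho was 0.623 (permutation p = 0.00416, adjusted 0.0125). Without OZ1-2 and OZ1-10, the arrays farthest from the EXPA7 median, r was 0.77. Without all 4 OZ1 arrays that lay nearer OZ2, r was 0.569 over 16 arrays (permutation p = 0.0226), and rho was 0.268 and did not pass (permutation p = 0.315). With OZ1-9 also left out, a step chosen after seeing the data, r was 0.278 over 15 arrays (permutation p = 0.316). These 15 arrays are those left after the high values of both genes are removed, which narrows the range and by itself lowers r, and EXPA18 lay under the filter level on 7 of them. The values do not show whether the genes vary together at low levels in OZ1. Within scan day 1 r was 0.921 over 12 arrays, and within scan day 2 it was 0.665 over 8 arrays (exact permutation p = 0.0733). Whether the correlation differs between OZ1 and OZ2 was not tested.

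**Figure D3:**
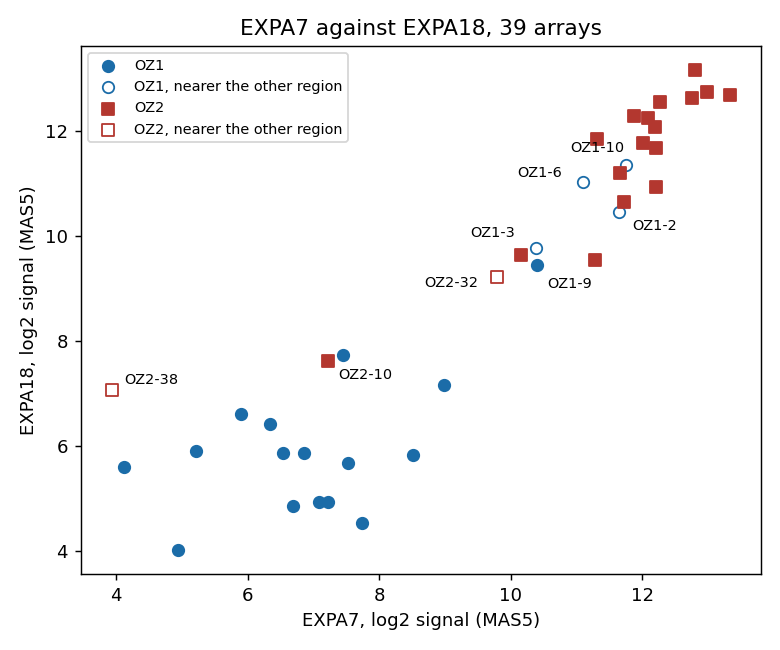
Log2 signal of EXPA7 (horizontal) against EXPA18 (vertical) on 39 arrays, with OZ1 as circles and OZ2 as squares. Open symbols mark the 6 arrays placed nearer the other region by their other probe sets. OZ1-9 sits among the OZ2 arrays, at 10.40 and 9.45, and OZ2-10 among the OZ1 arrays, at 7.23 and 7.62.

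The size of the step was compared between the genes through the log2 difference of EXPA18 and EXPA7 on each array. The step of EXPA18 exceeded that of EXPA7 by 0.80 (two-sided permutation p = 0.0327, 39 arrays). On scan day 1 alone it exceeded it by 1.56 (permutation p = 0.00063, 22 arrays). Between the OZ2 arrays of scan day 3 and the OZ1 arrays of scan day 2 the difference of the steps was -0.153, given with no test. Without the 6 arrays off their region it was 0.716 (permutation p = 0.0593), and after quantile normalization 0.736 (permutation p = 0.0531). Leaving out a single array, tried after seeing the data, gave 0.614 without OZ2-38 (permutation p = 0.066), and OZ1-15, OZ1-16 or OZ1-23 left out also took p past 0.05 (0.0514 to 0.0579). On scan day 1 without OZ2-38 the value was 1.26 (permutation p = 0.00191). A larger step of EXPA18 thus passed on the shared scan day, and over all arrays it lay on either side of the threshold by setting. Whether the 2 probe sets respond alike to RNA amount was not tested. In OZ1, EXPA18 lay below the filter level on 7 of 20 arrays and EXPA7 on 3 of 20. OZ2-38, where EXPA18 lay -4.68 and EXPA7 -8.07 from their OZ2 medians, is the array on which the genes parted most in OZ2.

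No pattern along the submitters' order was detected for either gene beyond the step from OZ1 to OZ2. The fit held the region and 3 harmonics of the position. The fitted range over the 39 positions was 2.66 on the log2 scale for EXPA7 (unadjusted p = 0.539, limma adjusted p = 0.844) and 2.94 for EXPA18 (unadjusted p = 0.455, adjusted p = 0.798). With 0 of 2 members called in this fit, the background was 0.411% of tested probe sets. The SD between arrays of a region was 1.75 to 2.27, and a change of the fitted size was not detected against it. No detection limit was computed. The region term is a step between positions 20 and 21, so it would take up part of a slow pattern along the order. In 6 alternative fits the fitted ranges were 2.20 to 3.81 for EXPA7 and 2.50 to 3.83 for EXPA18, and the lowest adjusted p was 0.499. The high OZ1 arrays stood at positions 6, 7, 11, 13 and 18, and the low OZ2 arrays at 27 and 38, so neither kind was gathered at 1 end of the order.

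**Figure D4:**
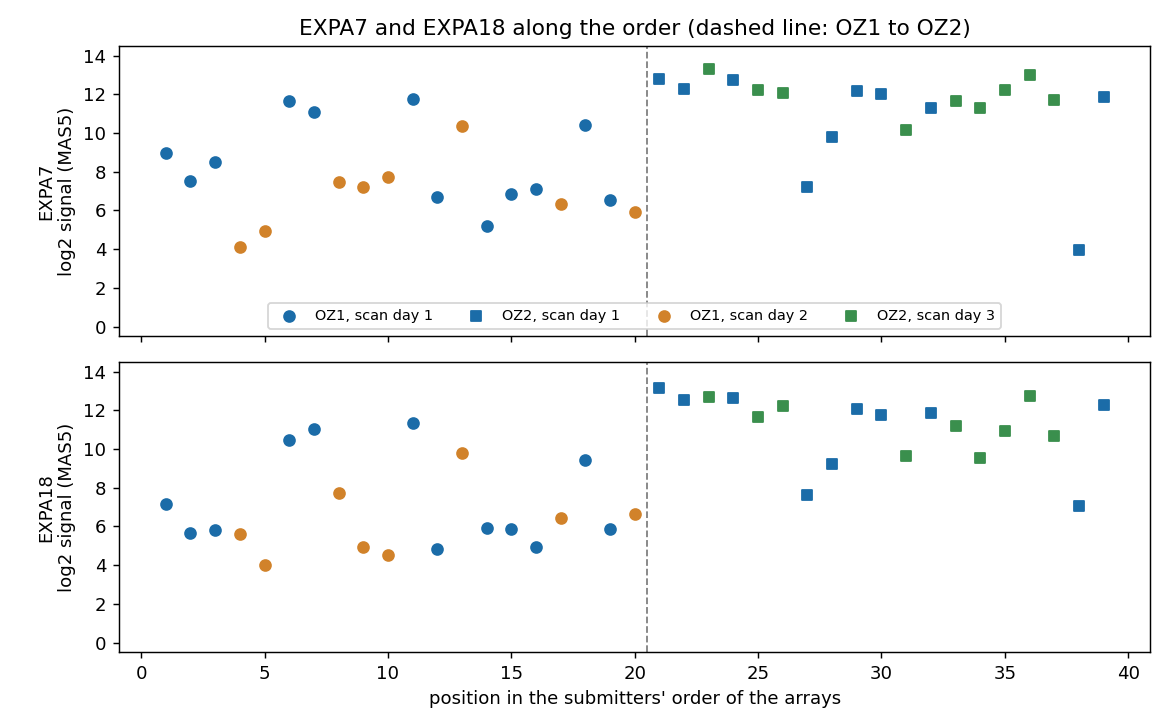
Log2 signal of EXPA7 (top) and EXPA18 (bottom) on each array by its position in the submitters' order, with colours for the scan day, circles for OZ1 and squares for OZ2. The dashed line stands between positions 20 and 21. Apart from the low arrays at positions 27 and 38, the OZ2 arrays lie above 9 on both plots.

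Genes with the pattern most like that of the pair were ranked by the mean of their Pearson r with EXPA7 and with EXPA18, over 39 arrays and after subtracting the mean of each region. EXPA7 and EXPA18 gave r = 0.866 with each other by this measure, and EXPA18 ranked 14th for EXPA7 and EXPA7 8th for EXPA18 among the tested probe sets. Over all 13625 other tested probe sets the median of the mean r was -0.02, and 241 had a mean r over 0.7. All these values share the same arrays, their labelling and their cell mixture, and they are given as a description.

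The highest named gene was AT1G30870, with a mean r of 0.877 and a log2 signal that went from 7.97 ± 2.87 (SD, n = 20) in OZ1 to 12.67 ± 1.88 (SD, n = 19) in OZ2. It was followed by AT3G07070 (0.859), AT5G04960 (0.854), AT1G68440 (0.847) and AT3G49960 (0.846). Next came tny, the gene of the AP2/ERF-type transcription factor TINY, with a mean r of 0.843. AT3G18170, AT4G30320 and AT4G26010 had a mean r of 0.84 each, and AT3G56230 had 0.837. Probe sets without a gene name in the table ranked between them, 19 of them above the last of the 10. Across all tested probe sets the mean r correlated with the log2 difference between the regions (r = 0.694, over probe sets, which are not independent replicates).

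The log2 differences of these 10 genes ran from 1.33 for AT1G68440 to 5.47 for AT3G18170, and 10 of 10 passed as higher in OZ2, beside 13.3% of all tested probe sets. Under the scan day block 7 of 10 passed, beside 4.56%. Nothing is read from these counts, since the arrays off their region carry the contrast of the regions into r, and genes chosen by r are in part chosen for that contrast. AT1G68440 (adjusted p = 0.107), AT3G49960 (adjusted p = 0.0915) and AT3G56230 (adjusted p = 0.434) did not. Without the 6 arrays off their region their mean r was 0.62 to 0.763, beside 0.731 between EXPA7 and EXPA18.

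**Figure D5:**
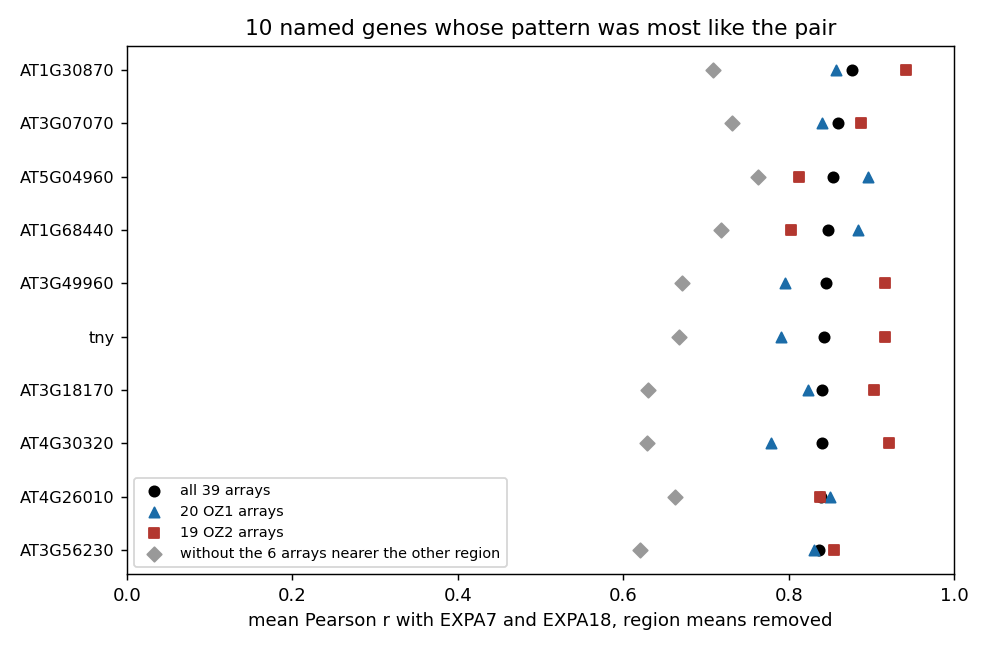
Mean Pearson r with EXPA7 and EXPA18 of the 10 named genes most like the pair, after removing the mean of each region. Black circles are all 39 arrays, triangles OZ1, squares OZ2 and grey diamonds the arrays left after 6 off their region are removed. The diamonds lie lowest for all 10 genes, between 0.62 and 0.763.

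Other genes of root hair formation could be followed only in small number. Of 47 genes on the root hair list 4 had a named probe set and 3 were tested. EXPA7 and EXPA18 themselves are 2 of these 3, so no count of rises is read from the list. SCN1 (SUPERCENTIPEDE1), which restricts hair initiation to a single site per cell, had log2 signals of 10.38 ± 0.58 (SD, n = 20) in OZ1 and 10.71 ± 0.74 (SD, n = 19) in OZ2. Its log2 difference of 0.32 did not pass (limma adjusted p = 0.282). Under the scan day block it was -0.18. Its mean r with the pair was 0.534. XTH26, a xyloglucan endotransglucosylase/hydrolase of the cell wall, lay below the filter in both regions (3.32 ± 0.99 and 4.71 ± 1.81) and was not tested. TRY (TRIPTYCHON), a small MYB protein of hair-cell fate and the 1 gene of 10 on that list with a probe set, was also below it (4.77 ± 1.83 and 5.22 ± 1.46).

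Markers of other cell types were few as well. The cortex and endodermis list had 2 tested genes of 7, and 0 of 2 passed, where 29% of tested probe sets passed in either direction, so the count says little. AT1G09750 had a log2 difference of -0.78 (limma adjusted p = 0.205) and of -1.77 under the scan day block (adjusted p = 0.0383), and AT1G62500 had -0.02. Their mean r with the expansin pair was 0.036 and -0.084. The lists for xylem, phloem and root cap had no named probe set and were not analysed here.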

How the data were processed

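The authors deposited intensity values for each probe set on each array. Per the submitters' processing notes they come from MAS5, in a version that the sources used here do not give. Between the 2nd and 98th percentile each array had a mean of 250.0, so signals had been scaled before deposit. The authors also deposited instrument records (unit other), which gave the chip type and scan day. Of 22810 probe sets, 64 controls were left out. Tests were run on probe sets whose mean log2 signal exceeded the 40th percentile (5.69), leaving 13627. Signals of different probe sets are not compared as amounts of RNA. The step of EXPA18 against that of EXPA7 and the summed signal of dividing-cell markers do combine probe sets. Whether these respond alike to RNA amount was not tested. The number of arrays limits the precision.

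OZ2 was set against OZ1 in R 4.3.3 by limma 3.58.1 (lmFit and eBayes, trend on), and the order with an F-test of 3 harmonics (6 terms) beside the region, two-sided, at a Benjamini-Hochberg adjusted p of 0.05 over all tested probe sets. Permutation tests used 100000 permutations (Python 3.11.15), or all of them where n is under 10, for scan days and for sign flips. The fits were tested on simulated data. A single gene name is given for 13513 probe sets, of which 13436 matched TAIR10.1, used for names and gene order only. No coordinates are printed, because the build behind the array is unknown from the sources used here.

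The 2 genes and all lists were chosen with earlier results of these data known. Named genes were the pair, tested genes of the root hair list, the 10 genes of highest mean r with the pair, and up to 2 tested members of each other list. AUR1, XTH26, TRY and the chromosome neighbours of the pair are named outside this rule, after their values were seen. Expansins outside the pair are given by counts, and no protein sequence was used to choose among them. Alternatives were quantile normalization, log2(value + 16), a 60th percentile filter or none, robust eBayes, array weights, a scan day block or scan day 1 alone, the title number as a block, the hybridisation control level as a term, 2 harmonics, and fits without arrays. Those that combine a scan day block with arrays left out, or leave out OZ1-9 or OZ2-10, and those of the step size without single arrays, were added after seeing the data.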

Additional observations from a re-analysis of the deposited data

How the results depend on the processing

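EXPA18 kept its direction and passed in all 13 alternative fits (log2 difference 3.65 to 5.56) and EXPA7 in 11 of 13 (2.09 to 4.80). EXPA7 did not pass with a scan day block or on scan day 1 alone (2.09 in both, which give the same difference by design). The cause was not tested. Leaving out each array in turn changed neither call (EXPA7 3.24 to 3.84, EXPA18 4.08 to 4.46). The count of probe sets passing was 3949, and 3643 to 4406 without each array in turn, 6342 with array weights, 1535 with a scan day block and 801 on scan day 1 alone, which has fewer arrays. For the order the count was 56, and 0 after quantile normalization, 112 with log2(value + 16), 503 without a filter, 0 with the hybridisation control level as a term and 305 with 2 harmonics. At an unadjusted limma p under 0.05 the order fits gave 1854 probe sets, 1416 after quantile normalization and 372 with the control term, where 5% of 13627 is 681. The correlation in OZ1 no longer passed within scan day 2 (0.665, 8 arrays) or without the 4 arrays nearer OZ2 and OZ1-9 (0.278), and by rank not without those 4 arrays alone (rho 0.268). The larger step of EXPA18 no longer passed after quantile normalization (0.736) or without the 6 arrays off their region (0.716), and was 0.614 to 0.922 without each array in turn, passing in 35 of 39.

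For arrays with the same title number, deviations from the region means correlated over 0.1 in 3 of 14 cases (range -0.248 to 0.196, median 0.028). The share among arrays of different numbers is not given, so this count has no background. For 3 of 14 numbers the OZ1 array also had the OZ2 array of its own number as best match. This check cannot tell what the numbers stand for. With the title number as a replicate block EXPA7 had 3.69 ± 0.64 (SE, limma adjusted p = 0.00015) and EXPA18 4.50 ± 0.63 (limma adjusted p = 1.42e-05). In that fit 3601 probe sets passed. OZ2 was higher in 13 of 14 numbers for both genes (exact sign-flip permutation p = 0.00134 and 0.00061), the exception being number 10. In 9 numbers both arrays shared a scan day, with mean differences of 2.59 for EXPA7 and 4.11 for EXPA18 (exact sign-flip permutation p = 0.0391 and 0.0156). In the other 5 they were 5.68 and 5.22, and there region and scan day cannot be told apart. The title number block holds both kinds of number.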

Other observations

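Among the other genes named as expansins, 16 had a named probe set and 11 were tested. Of these 2 rose and 2 fell from OZ1 to OZ2 in the limma fit, with log2 differences of -1.81 to 2.05 over the 11. Over all tested probe sets 13.3% were called higher and 15.6% lower, so with 11 genes these counts say little about expansins. Their mean r with EXPA7 and EXPA18, region means removed, was -0.339 to 0.531 with a median of -0.08.

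The genes beside EXPA7 and EXPA18 on chromosome 1 were read by gene order, a choice made after their values were known. Of the 5 protein-coding genes on each side of EXPA7, 3 were tested, and none passed (AT1G12500 -0.48, CCS -0.45 and AT1G12570 0.47, limma adjusted p of 0.082 to 0.514). Of those around EXPA18, 3 were tested. AT1G63010 fell by 0.75 on the log2 scale (limma adjusted p = 0.00214), while AT1G62950 (0.31) and AT1G62970 (-0.03) did not pass. The mean r of the 6 genes with the pair was -0.368 to 0.17.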
